A study of Mus musculus with 9 samples.

Results

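The CXC chemokines are a family of small secreted proteins that attract leukocytes, and 9 of them were followed here: Cxcl1, Cxcl2, Cxcl5, Cxcl9, Cxcl10, Cxcl12, Cxcl13, Cxcl14 and Cxcl16. They were chosen by gene symbol and not by their levels, and each had 1 entry among the 24453 genes of the file. RNA sequencing was done on 3 groups of 3 libraries from C57BL/6J mouse liver. HSCs (hepatic stellate cells) came from normal livers of wild-type mice by density gradient, with no sort. CCl4-fib were CD45- GFP+ cells sorted from Col1a2-GFP Tg mice that received carbon tetrachloride, a liver toxin, 2 times a week for 8 weeks. NASH-fib passed the same sort from MC/COL mice, which carry the same transgene and lack the melanocortin 4 receptor (MC4R-KO), after 20 weeks on Western diet from 8 weeks of age, and these mice were male. The age of the other mice is not given in the sources used here. In both fibroblast groups GFP is driven by the collagen α2(I) promoter, so any cell in which that promoter is active can pass the gate. RNA for a library came from pooled cells of 3 to 5 mice, and it is not stated whether pools shared mice, so the p-values measure the spread between libraries. The way of isolating cells differs between HSCs and both fibroblast groups, and genotype, diet and toxin differ together between NASH-fib and CCl4-fib, so these cannot be told apart.

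CXC chemokines act through G protein-coupled receptors on the cells they attract. Cxcl1, Cxcl2 and Cxcl5 bind CXCR2 and draw neutrophils. Cxcl9 and Cxcl10 are induced by interferons and draw T cells and natural killer cells through CXCR3. Cxcl12 holds and guides blood-forming and immune cells through CXCR4, Cxcl13 guides B cells through CXCR5, and Cxcl16 is a membrane-bound ligand of CXCR6. In injured liver, stellate cells and fibroblasts are known sources of several of them. The question of the design was how fibroblasts activated in the NASH model and in the CCl4 model differ from HSCs and from each other.

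The deposited value of a gene is its read count scaled to a common library total, written here as the value. The 9 libraries held 3071070 to 5634273 reads on genes, and 3 reads, taken as the floor, corresponded to a value of 2.38 to 4.37. All 9 members passed the filter on low values, as did 13651 genes in all. Groups were compared by limma, with all 9 libraries in 1 fit of log2(value + 1). To be called, a gene had to change by 1 or more on the log2 scale in either direction with a Benjamini-Hochberg adjusted p under 0.05 over all genes tested. Fold changes below are on this scale, which understates the change of low genes.

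The labelled cell types were checked by the summed values of marker lists. Stellate cell markers summed to 70800 to 85600 in HSCs, 18600 to 30900 in CCl4-fib and 30900 to 49800 in NASH-fib. Rgs5 and Dcn made up most of the sums in both fibroblast groups. Against HSCs 6 of 11 markers were called lower in CCl4-fib and 7 of 11 in NASH-fib, beside 11.7% and 4.3% of all genes, and 0 higher. The log2 fold change in CCl4-fib and NASH-fib was -5.70 and -5.30 for Lrat, and -6.52 and -5.19 for Reln. Activated fibroblast markers summed to 6260 to 12000, 45800 to 52900 and 23500 to 28000 in the same order. Postn made up a large part of the HSC sums and went the other way, at -1.24 in CCl4-fib (not called) and -1.71 in NASH-fib (called lower) against HSCs. Of the 7 markers 6 were called higher in CCl4-fib and 5 in NASH-fib, beside 16.2% and 8.23% of all genes. RNA of other cell types was read in all groups. Mesothelial markers summed to 601 to 985 in HSCs, 16000 to 22200 in CCl4-fib and 25100 to 31700 in NASH-fib. Sinusoidal endothelial markers went the other way, with 8700 to 17600 in HSCs, 321 to 394 in CCl4-fib and 1390 to 4390 in NASH-fib. Macrophage and Kupffer cell markers summed to 5400 to 18600, 482 to 956 and 3060 to 6710. Hepatocyte markers summed to 23200 to 44700, 2390 to 3300 and 8370 to 33400, and portal fibroblast markers to 156 to 199, 7070 to 9340 and 2420 to 5370. Neutrophil markers were highest in NASH-fib replicate 2, at 6459, and within HSCs in replicate 2, at 1076. In CCl4-fib they summed to 5.55 to 78.2, and Ly6g and Csf3r had 0 reads there. Despite the CD45- gate, the leukocyte list, which holds Ptprc (the CD45 gene), summed to 121 to 587 in NASH-fib and 15.9 to 36.3 in CCl4-fib, against 122 to 370 in unsorted HSCs. In such bulk libraries fewer cells of a type and less RNA per cell cannot be told apart.

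**Figure D1:**
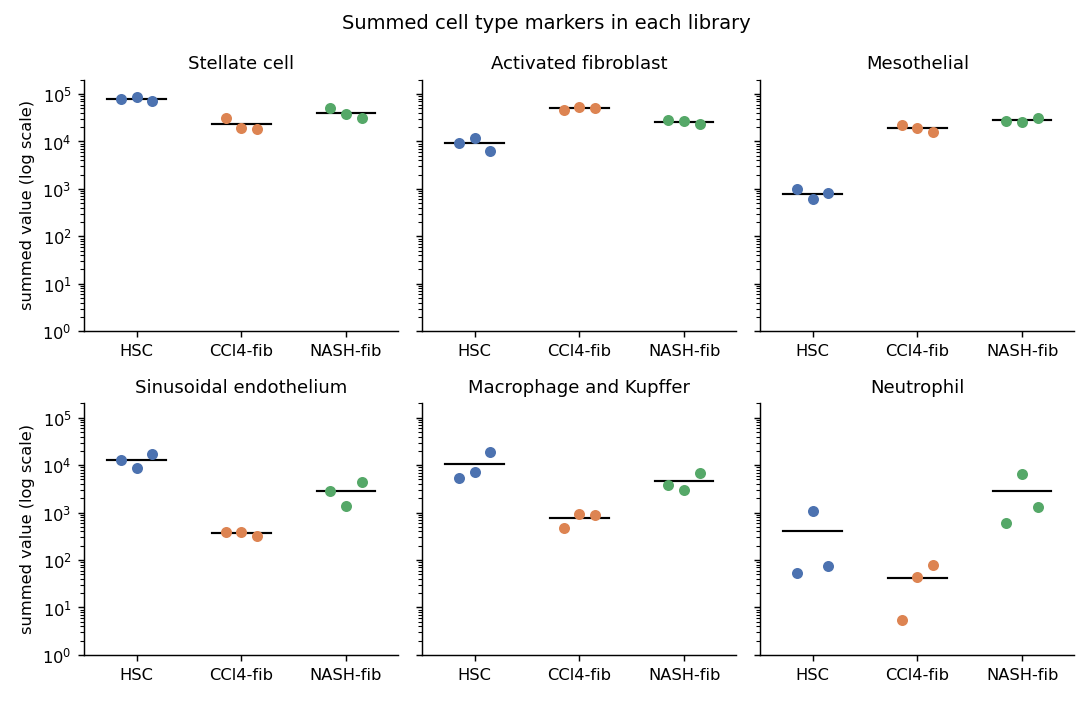
Summed value (log scale) of 6 cell type marker lists in each of the 9 libraries, with the 3 libraries of a group as points and their mean as a bar. Sinusoidal endothelial and macrophage markers are lowest in CCl4-fib, mesothelial markers are high in both fibroblast groups, and neutrophil markers differ widely among libraries of HSCs and NASH-fib.

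Promoter sequences are shown for the 3 members whose upstream window holds the NF-kB binding motif, since Cxcl1 and Cxcl2 carry the largest changes after Cxcl5 in CCl4-fib, and Cxcl10 also holds the interferon-stimulated response element. Of the 9 members, 7 had an entry among the 32851 RefSeq promoter windows (build GRCm38.p6), and Cxcl5 and Cxcl16 had none. The 250 bases before each start were searched on both strands for the NF-kB consensus (kB), which 7.25% of all windows hold, the ISRE as GAAANNGAAA (2.98%), the interferon gamma activated site (GAS) as TTCNNNGAA (7.02%) and the AP-1 motif as TGANTCA (6.75%). In Cxcl1 (chr5:90891095-90891244, plus strand) and Cxcl2 (chr5:90903749-90903898, plus strand) the last 150 bases before the start are printed, and the capitals mark overlapping kB matches on the 2 strands. In Cxcl10 (chr5:92348890-92349139, minus strand) all 250 bases are printed, and the capitals mark, from the 5′ end, the ISRE, a kB match, overlapping kB matches and AP-1.
Cxcl1: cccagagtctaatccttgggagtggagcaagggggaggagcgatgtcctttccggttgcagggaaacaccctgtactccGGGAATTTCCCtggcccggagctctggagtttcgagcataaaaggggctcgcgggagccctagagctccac
Cxcl2: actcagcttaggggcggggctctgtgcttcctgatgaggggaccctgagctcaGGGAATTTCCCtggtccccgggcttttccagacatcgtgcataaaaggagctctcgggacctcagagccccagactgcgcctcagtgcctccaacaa
Cxcl10: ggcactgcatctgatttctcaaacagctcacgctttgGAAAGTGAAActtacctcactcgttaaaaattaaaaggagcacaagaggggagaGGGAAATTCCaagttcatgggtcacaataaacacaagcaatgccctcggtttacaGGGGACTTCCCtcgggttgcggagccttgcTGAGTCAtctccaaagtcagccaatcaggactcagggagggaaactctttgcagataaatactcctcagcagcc
The kB match begins 71 bases before the start of Cxcl1 and 97 bases before that of Cxcl2, with the letters GGGAATTTCC in both. The kB matches of Cxcl10 begin 159, 104 and 103 bases before its start. Cxcl14 held an ISRE match, GAAACAGAAA, and a GAS match, TTCTGAGAA. None of the 4 motifs was found in the window of Cxcl9, Cxcl12 or Cxcl13. A match is a description of letters, and binding was not measured.

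The neutrophil-attracting members had the 3 largest changes of the family in both comparisons that involve CCl4-fib, and none of them was called in NASH-fib against HSCs. Cxcl1 (NM_008176, chr5:90891245-90893115 in mm10) had values of 14.0, 153 and 23.9 in the 3 HSC libraries, of 1234, 1818 and 1071 in the CCl4-fib libraries, and of 95.2, 134 and 88.5 in the NASH-fib libraries. Every CCl4-fib library stood above every other library, whereas NASH-fib overlapped HSCs because of HSC replicate 2. Cxcl1 was higher in CCl4-fib than in HSCs by 5.12 on the log2 scale (SE 0.72, limma adjusted p = 0.000578), and lower in NASH-fib than in CCl4-fib by a log2 fold change of -3.67 (SE 0.72, adjusted p = 0.0156). Against HSCs the NASH-fib difference of 1.45 (95% interval -0.146 to 3.04, adjusted p = 0.28) was within the error. Without HSC replicate 2, in which neutrophil markers were also high within its group, that difference was 2.44 with an adjusted p of 0.00492, and it was called in no other alternative. The part of neutrophil RNA in it was not tested.

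Cxcl2 (NM_009140, chr5:90903899-90905938) lies next to Cxcl1 and had values of 8.18, 2.91 and 3.59 in HSCs, which rest on 7, 2 and 3 reads. CCl4-fib libraries had 82.6, 249 and 462, and NASH-fib libraries had 14.95, 10.7 and 38.3. The 3 groups did not overlap, with CCl4-fib highest and HSCs lowest. The log2 fold change was 5.28 (95% interval 3.66 to 6.90, adjusted p = 0.000532) in CCl4-fib against HSCs and -3.46 (adjusted p = 0.02) in NASH-fib against CCl4-fib, while the 1.83 of NASH-fib against HSCs (interval 0.205 to 3.45, adjusted p = 0.158) did not pass the test. The transcripts of Cxcl2 and its close paralog Cxcl3 share a run of 110 identical bases in GENCODE, so a part of the reads could belong to either. Cxcl3 itself had values of 6.35, 9.36 and 28.6 in CCl4-fib and at most 1.46 in the other 6 libraries, too low to be tested. Cxcl1 and Cxcl2 share at most 23 bases.

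Cxcl5 (NM_009141, chr5:90759298-90761625), known for its release by stromal and epithelial cells, had the largest change of all members in CCl4-fib against HSCs and in NASH-fib against CCl4-fib. HSC libraries had values of 12.9, 5.82 and 27.5, CCl4-fib libraries 2068, 2782 and 4243, and NASH-fib libraries 32.6, 35.6 and 48.2. The lowest CCl4-fib library lay far above the highest of the other 6, and NASH-fib lay just above HSCs without overlap. CCl4-fib exceeded HSCs by 7.70 on the log2 scale (SE 0.533, adjusted p = 1.5e-05), a ratio of means of 197, and this was number 35 from the top of all genes tested. In NASH-fib against CCl4-fib the log2 fold change of -6.21 (95% interval -7.39 to -5.03, adjusted p = 0.002) was the 7th lowest of all genes tested. Both calls held in all 19 alternatives, including the removal of each library in turn. NASH-fib against HSCs gave 1.50 (interval 0.319 to 2.67, adjusted p = 0.106). Against HSCs 16.2% of all genes were called higher in CCl4-fib and 8.23% in NASH-fib. Mesothelial and cholangiocyte markers were higher in both fibroblast groups than in HSCs, with 6 of 6 mesothelial markers called in each group. Of the cholangiocyte markers 4 of 7 were called in CCl4-fib and 6 of 7 in NASH-fib. Between the fibroblast groups the genes of both lists went different ways. The mesothelial genes Wt1, at -1.67 (limma adjusted p = 0.0215), and Upk3b, at -2.33 (adjusted p = 0.0968), were lower in NASH-fib than in CCl4-fib, while Gpm6a was higher by 1.13 (adjusted p = 0.0604). Cholangiocyte markers summed to 3490 to 4780 in CCl4-fib, 6100 to 11900 in NASH-fib and 72.5 to 232 in HSCs, and Spp1 made up most of the NASH-fib sums. Krt19 was read at 2174, 2699 and 771 in the CCl4-fib libraries and at 53.0, 469 and 348 in the NASH-fib libraries, a log2 fold change of -3.0 (adjusted p = 0.0502) in the direction of Cxcl5. Their part in the Cxcl5 values was not tested.

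**Figure D2:**
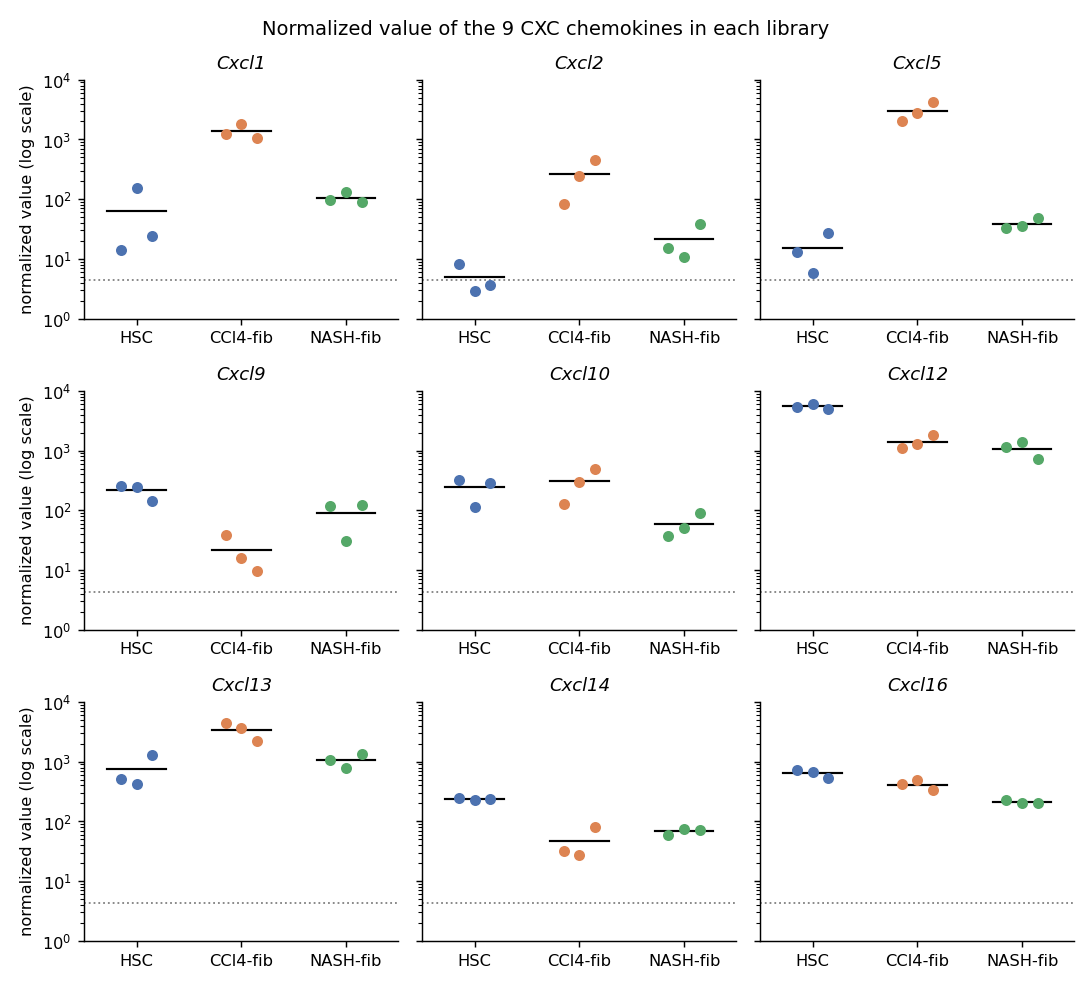
Normalized value (log scale) of each of the 9 CXC chemokines in the 3 HSC, 3 CCl4-fib and 3 NASH-fib libraries, as points, with the group mean as a bar; the dotted line marks the highest floor of 3 reads, 4.37. Cxcl1, Cxcl2 and Cxcl5 stand highest in CCl4-fib, Cxcl9 lowest there, and Cxcl12 and Cxcl14 are lower in all 6 fibroblast libraries than in HSCs.

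The interferon-inducible members did not move together. Cxcl9 (NM_008599, chr5:92321331-92328079), a CXCR3 ligand induced mainly by interferon gamma, was read at 258, 248 and 145 in the HSC libraries, at 38.1, 16.2 and 9.54 in the CCl4-fib libraries, and at 120, 31.2 and 123 in the NASH-fib libraries. All CCl4-fib libraries lay below all HSC libraries, and NASH-fib replicate 2 fell among the CCl4-fib values. Cxcl9 fell by 3.46 on the log2 scale in CCl4-fib against HSCs (SE 0.652, limma adjusted p = 0.00303). The difference of NASH-fib from HSCs, -1.43 (95% interval -2.87 to 0.0137, adjusted p = 0.228), and that from CCl4-fib, 2.03 (interval 0.586 to 3.47, adjusted p = 0.0732), did not pass the test. Sinusoidal endothelial markers moved in the same direction, with 11 of 11 called lower in CCl4-fib than in HSCs. So did 9 of 12 macrophage and Kupffer cell markers, beside 11.7% of all genes. None of either list had 0 reads throughout a group. NASH-fib replicate 2 had the lowest sums of its group in both lists, 1390 and 3060. Their part in the Cxcl9 values was not tested.

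Cxcl10 (NM_021274, chr5:92346639-92348889), another CXCR3 ligand, was read at 323, 115 and 288 in the HSC libraries, at 127, 297 and 492 in the CCl4-fib libraries, and at 36.7, 50.8 and 89.4 in the NASH-fib libraries. HSCs and CCl4-fib overlapped over most of their range, and all NASH-fib libraries lay below the other 6. Cxcl10 was lower in NASH-fib than in CCl4-fib, with a log2 fold change of -2.25 (SE 0.594, adjusted p = 0.039), whereas the difference from HSCs of -1.98 (interval -3.30 to -0.666, adjusted p = 0.0544) narrowly missed the threshold. CCl4-fib and HSCs differed by 0.26 (interval -1.05 to 1.58, adjusted p = 0.765). The call against CCl4-fib was lost without HSC replicate 1, without CCl4-fib replicate 2 or 3, and without any 1 of the NASH-fib libraries, with adjusted p up to 0.14. Cxcl10 lies inside the span of Art3 on the other strand and shares 133 exonic bases with it in GENCODE. Reads were counted without regard to strand, and Art3 had 2361, 367 and 1157 reads in the 3 HSC libraries against 115 to 414 in the other 6, so its part in the HSC values of Cxcl10 was not tested.

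Cxcl12 (NM_021704, chr6:117168535-117175069), the CXCR4 ligand that stromal cells make in the absence of inflammation, was the most abundant member in HSCs per length. HSC libraries had values of 5336, 6040 and 5051, CCl4-fib libraries 1126, 1293 and 1791, and NASH-fib libraries 1145, 1373 and 713. The 6 fibroblast libraries overlapped each other and all lay below HSCs. Its log2 fold change against HSCs was -1.99 in CCl4-fib (SE 0.343, limma adjusted p = 0.0019) and -2.39 in NASH-fib (SE 0.343, adjusted p = 0.00103), and both calls held in all 19 alternatives. The difference between the fibroblast groups was -0.41 (95% interval -1.17 to 0.354, adjusted p = 0.459). Against HSCs 11.7% of all genes were called lower in CCl4-fib and 4.3% in NASH-fib. Stellate cell markers fell beside Cxcl12, with 6 of 11 called lower in CCl4-fib and 7 of 11 in NASH-fib. Sinusoidal endothelial markers did so with 11 of 11 and 8 of 11. Their part in the values of Cxcl12 was not tested.

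Cxcl14 (NM_019568, chr13:56288643-56296551), a chemokine made by epithelium and stroma in the resting state, moved in the same direction at a lower level. HSC libraries had values of 247, 226 and 240, CCl4-fib libraries 31.8, 27.2 and 82.1, and NASH-fib libraries 59.8, 75.7 and 72.7. The HSC libraries agreed closely, at 238 ± 10.7 (SD, n = 3), and stood above all 6 fibroblast libraries. Its log2 fold change against HSCs was -2.49 in CCl4-fib (adjusted p = 0.00264) and -1.77 in NASH-fib (adjusted p = 0.0278). The CCl4-fib call held in all 19 alternatives, but the NASH-fib call was lost without any 1 HSC or NASH-fib library and with the label prefix as a block, with adjusted p up to 0.0912. The fibroblast groups overlapped and differed by 0.72 (95% interval -0.291 to 1.73, adjusted p = 0.324).

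Cxcl13 (NM_018866, chr5:95956939-95961068), which guides B cells into follicles, was read at high level in all 3 groups. HSC libraries had values of 517, 431 and 1300, CCl4-fib libraries 4526, 3642 and 2220, and NASH-fib libraries 1086, 778 and 1337. CCl4-fib stood above the other 6 libraries, while HSC replicate 3 reached into the range of NASH-fib. Cxcl13 rose by 2.33 on the log2 scale in CCl4-fib against HSCs (SE 0.466, adjusted p = 0.00419), a call that held in all 19 alternatives. NASH-fib lay below CCl4-fib by a log2 fold change of -1.67 (interval -2.70 to -0.641, adjusted p = 0.0458), but only 5 of 19 alternatives called it, and its adjusted p ran from 0.0243 to 0.159. NASH-fib and HSCs differed by 0.65 (interval -0.376 to 1.68, adjusted p = 0.5). The counting was set to keep at most 3 reads per position, and Cxcl13 had 4.93, 3.70 and 2.01 reads per exonic base in the 3 CCl4-fib libraries. The first 2 are above 3, so the limit cannot have held for both strands together. Whether it was set for each strand is not stated, so how near these values come to it is not known. These 2 were denser than any other member's reads, so the highest values of Cxcl13 may be held down. Cxcl5 reached 2.70 in CCl4-fib replicate 3, Cxcl12 2.44 in HSC replicate 1 and Cxcl1 2.27 in CCl4-fib replicate 2. The same limit may touch their values, fold changes and shares per kilobase. Against HSCs 16.2% of all genes were called higher in CCl4-fib and 8.23% in NASH-fib. Mesothelial markers, 6 of 6 of which were called higher in each fibroblast group, were present beside Cxcl13, and their part was not tested.

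Cxcl16 (NM_023158, chr11:70454234-70459984), which is shed from the cell membrane by ADAM10 and ADAM17, was read at 736, 680 and 527 in the HSC libraries, at 419, 492 and 332 in the CCl4-fib libraries, and at 228, 200 and 202 in the NASH-fib libraries. The 3 groups did not overlap, with HSCs highest and NASH-fib lowest. Cxcl16 fell by 1.61 on the log2 scale in NASH-fib against HSCs (SE 0.313, limma adjusted p = 0.00616), a call lost only with the label prefix as a block (adjusted p = 0.228). Neither the -0.65 of CCl4-fib against HSCs (95% interval -1.34 to 0.0443, adjusted p = 0.149) nor the -0.96 between the fibroblast groups (interval -1.65 to -0.267, adjusted p = 0.0762) passed the test. Zmynd15 overlaps Cxcl16 on the other strand by 552 exonic bases in GENCODE and had 1 to 27 reads per library, against at least 168 for Cxcl16.

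Counted over the family, CCl4-fib differed from HSCs in 7 of 9 members. Cxcl1, Cxcl2, Cxcl5 and Cxcl13 were called higher and Cxcl9, Cxcl12 and Cxcl14 lower, whereas 16.2% of all genes tested were called higher and 11.7% lower in this comparison. NASH-fib differed from HSCs in 3 of 9 members, Cxcl12, Cxcl14 and Cxcl16, all lower, beside 4.3% of all genes called lower. None was called higher by limma, beside 8.23% of all genes, and DESeq2 and edgeR also called none higher. In that comparison 6 of 9 members had an unadjusted limma p under 0.05, and the share of all genes at that limit was not counted. NASH-fib lay below CCl4-fib in 5 of 9 members, Cxcl1, Cxcl2, Cxcl5, Cxcl10 and Cxcl13, beside 5.66% of all genes called lower, and above it in 0 of 9, beside 4.97%. The balance over all genes in this comparison, 678 higher and 773 lower, turned to 777 and 618 with TMM scaling. In NASH-fib against CCl4-fib 7 of 9 members had an unadjusted limma p under 0.05, and the share of all genes was again not counted. With edgeR none was called higher there, and DESeq2 called Cxcl9 higher. The libraries of the groups compared did not overlap in 8 of 9 members in CCl4-fib against HSCs (48.6% of all genes), in 7 of 9 in NASH-fib against HSCs (24.4%) and in 6 of 9 in NASH-fib against CCl4-fib (39.1%). The median log2 fold change of the 9 members was 0.26, -1.43 and -1.67 in these comparisons, beside 0.18, -0.02 and -0.11 over all genes tested. The 3 comparisons share libraries and are not independent of each other. Library labels open with a number pair whose meaning is not stated. Among libraries with the same number pair, each called member kept its direction: 7 of 7 in each of 2 such sets for CCl4-fib against HSCs, 3 of 3 in 1 set for NASH-fib against HSCs, and 5 of 5 in each of 2 sets for NASH-fib against CCl4-fib. For every called member the libraries of the groups compared did not overlap, so these directions were fixed in advance. They cannot show whether the number pair matters.

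**Figure D3:**
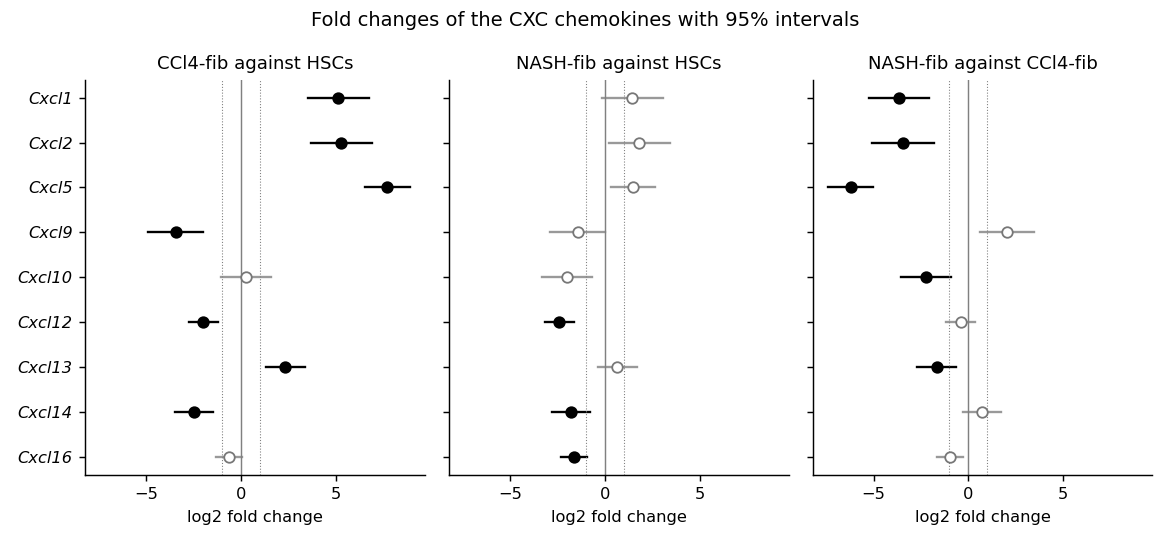
Log2 fold change of each member (points) with its 95% interval (lines) in the 3 comparisons, from limma on 3 libraries a group; filled black points were called and open grey ones were not, and dotted lines mark a log2 fold change of 1 in either direction. Cxcl5 lies farthest from 0, at 7.70 in CCl4-fib against HSCs and -6.21 in NASH-fib against CCl4-fib.

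The makeup of the family differed between groups when the values were divided by exonic length. Per kilobase, the 9 members summed to 4148 to 4528 in HSCs, 7474 to 8179 in CCl4-fib and 1762 to 1942 in NASH-fib, ranges that did not overlap. In HSCs Cxcl12 alone made up 59.6% to 74.0% of the sum, and in CCl4-fib 8.05% to 12.5%. In CCl4-fib the 3 neutrophil-attracting members together took 35.3% to 54.1% of the sum, against 7.13% to 9.89% in NASH-fib and 0.73% to 3.86% in HSCs. Cxcl13 held 25.1% to 52.4% in CCl4-fib and 38.2% to 59.5% in NASH-fib. By mean level per kilobase the order in HSCs was Cxcl12, Cxcl13, Cxcl16, Cxcl10, Cxcl14, Cxcl9, Cxcl1, Cxcl5 and Cxcl2, where Cxcl16 overlapped Cxcl10, Cxcl10 overlapped Cxcl14, and each of the last 4 overlapped its neighbour. In CCl4-fib the order was Cxcl13, Cxcl5, Cxcl1, Cxcl12, Cxcl10, Cxcl2, Cxcl16, Cxcl14 and Cxcl9, with overlap from Cxcl13 to Cxcl1 and from Cxcl10 to Cxcl16. In NASH-fib it was Cxcl13, Cxcl12, Cxcl1, Cxcl16, Cxcl10, Cxcl14, Cxcl9, Cxcl5 and Cxcl2, with overlap between the first 2 and from Cxcl10 to Cxcl2.

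**Figure D4:**
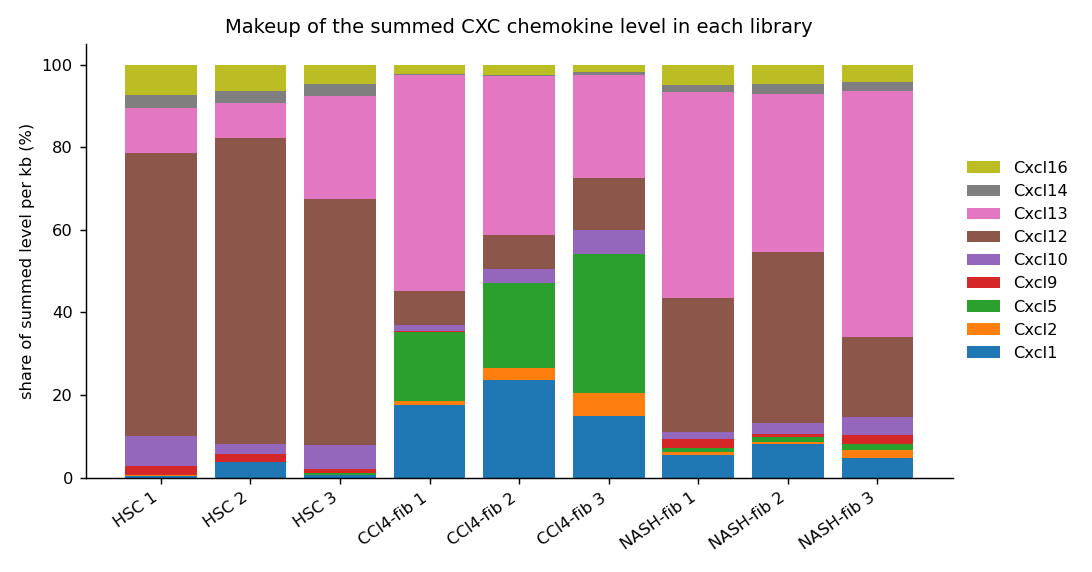
Share (%) of each member in the summed level per kilobase of the 9 CXC chemokines, 1 stacked bar for each of the 9 libraries. Cxcl12 (brown) fills most of each HSC bar, Cxcl1, Cxcl2 and Cxcl5 (blue, orange, green) together reach 35.3% to 54.1% in CCl4-fib, and Cxcl13 (pink) and Cxcl12 fill most of each NASH-fib bar.

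As a description of likeness, the 3 genes whose log2 values followed each member most closely over the 9 libraries were listed, with no test, since the points share groups and libraries. Cxcl1 was followed by Vdac1, Hist1h1b and Hoxc5 (Pearson r 0.97 to 0.98), Cxcl2 by Gng13, Adamts16 and Vash2 (0.967 to 0.985), and Cxcl5 by Mrc2, Calca and Lgals7 (0.979 to 0.989). Cxcl9 was followed by Elmsan1, Abcg3 and Sult1a1 (0.982 to 0.987) and Cxcl10 by Mob3c, Atl1 and Cela1 (0.928 to 0.974). Cxcl12 was followed by Trib2, Fgfr2 and Lrrc4c (0.971 to 0.975), Cxcl13 by Gpam, Tbc1d19 and Osr1 (0.953 to 0.957), Cxcl14 by Enox2, Rgag4 and Gata2 (0.965 to 0.983), and Cxcl16 by Tnfrsf1b, Lamb1 and Strn4 (0.962 to 0.984). Within the family the closest pair was Cxcl2 and Cxcl5 (r = 0.943, 9 libraries), and the most opposed was Cxcl5 and Cxcl9 (r = -0.885). With Spearman's rho in place of Pearson's r only 4 of the 27 names were the same.

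Of the other CXC ligands, 2 of 6 passed the filter, Pf4 and Ppbp, both known from platelets. Ppbp was listed at 66.6, 26.2 and 23.9 in HSCs and at 0, 0 and 5.72 in CCl4-fib, and was called lower there (adjusted p = 0.012). Cxcl11, Cxcl15 and Cxcl17 reached at most 8.16, 2.95 and 5.34 in any library and were not tested.

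The signalling receptors of these ligands had at most 119 reads in any library, and the clearest differences were in scavenging receptors. Ackr3 takes up Cxcl12 and clears it without classical signalling, and HSC libraries had values of 31.6, 5.82 and 19.1, CCl4-fib libraries 509, 484 and 82.1, and NASH-fib libraries 439, 493 and 338. It rose by 4.06 on the log2 scale in CCl4-fib (limma adjusted p = 0.0027) and by 4.67 in NASH-fib (adjusted p = 0.002) against HSCs, calls that held in all 19 alternatives, while its ligand Cxcl12 fell. Ackr4, a scavenger of CC chemokines, was read at 502, 392 and 493 in the HSC libraries, at 171, 64.6 and 78.2 in the CCl4-fib libraries and at 427, 288 and 502 in the NASH-fib libraries. It fell by 2.25 in CCl4-fib against HSCs (adjusted p = 0.00297) and was higher in NASH-fib than in CCl4-fib by 2.04 (adjusted p = 0.0184), a call that held in 15 of 19 alternatives with adjusted p up to 0.0904. Ackr1 and Ackr2, which bind inflammatory chemokines, fell in CCl4-fib against HSCs, with log2 fold changes of -2.68 (adjusted p = 0.00369) and -3.40 (adjusted p = 0.00622). Ackr2 was also higher in NASH-fib than in CCl4-fib, by 2.60 (adjusted p = 0.0469), a call that held in 6 of 19 alternatives. Of the 10 receptors 7 were tested. In CCl4-fib against HSCs 1 was called higher and 3 lower, beside 16.2% and 11.7% of all genes tested. For NASH-fib against HSCs the counts were 1 and 0, beside 8.23% and 4.3%. For NASH-fib against CCl4-fib they were 2 and 0, beside 4.97% and 5.66%. With 7 genes these counts are not read as a result about receptors as a set. Sinusoidal endothelial markers moved in the directions of Ackr1, Ackr2 and Ackr4, and their part was not tested. Among the signalling receptors Cxcr1 had 0 reads, and Cxcr2 had values of at most 8.74 in HSCs, 0 in CCl4-fib, and 2.72 to 41.0 in the NASH-fib libraries, beside the neutrophil markers of those libraries. Cxcr4, the signalling receptor of Cxcl12, was read at 16.4, 16.0 and 2.39 in the HSC libraries, at 7.14, 6.80 and 4.77 in the CCl4-fib libraries and at 55.7, 31.2 and 33.4 in the NASH-fib libraries, and its difference of 2.47 between the fibroblast groups narrowly missed the threshold (adjusted p = 0.0506).

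**Figure D5:**
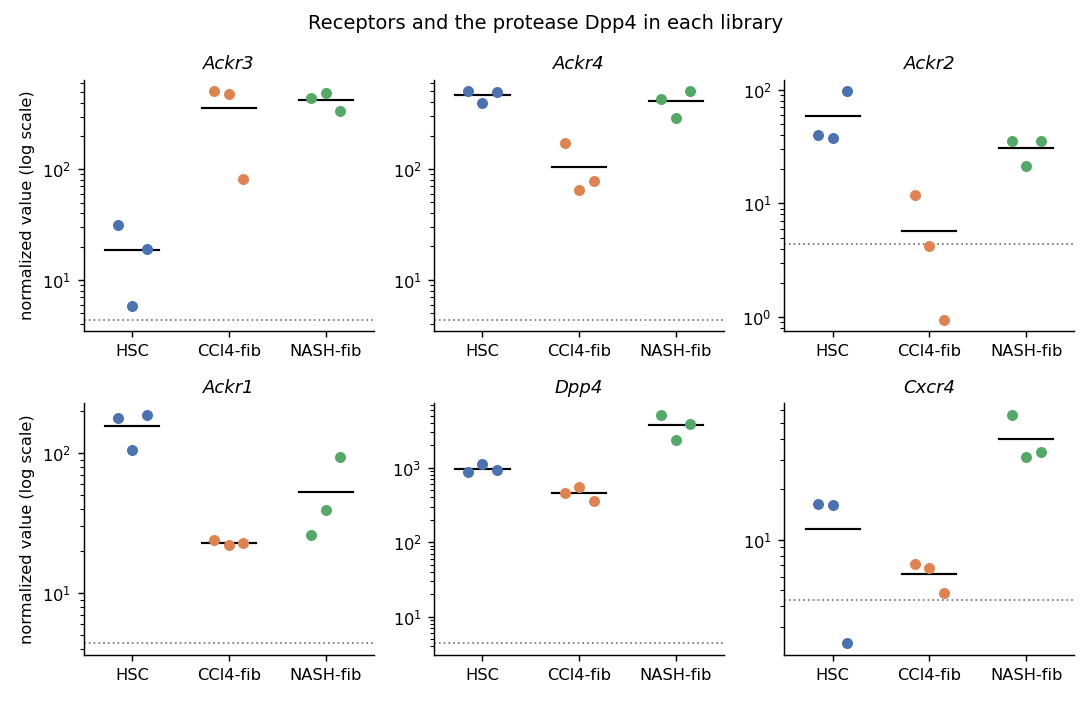
Normalized value (log scale) of 4 scavenging receptors, the protease gene Dpp4 and Cxcr4 in each of the 9 libraries, with points for libraries, bars for group means and a dotted line at the highest floor of 3 reads, 4.37. Ackr3 is higher in all fibroblast libraries than in HSCs, and Dpp4 is highest in NASH-fib.

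Among proteases that cut CXC chemokines, Dpp4 separated the groups most. It trims the N terminus of Cxcl9, Cxcl10 and Cxcl12, and HSC libraries had values of 867, 1124 and 935, CCl4-fib libraries 463, 552 and 363, and NASH-fib libraries 5145, 2381 and 3927. The groups did not overlap. Dpp4 was higher in NASH-fib by 1.91 on the log2 scale against HSCs (limma adjusted p = 0.00489) and by 3.00 against CCl4-fib (adjusted p = 0.00477), and both calls held in all 19 alternatives. It fell by 1.10 in CCl4-fib against HSCs (adjusted p = 0.0423), a call that held in 8 of 19. Adam17, a sheddase of Cxcl16, rose by 1.51 in CCl4-fib against HSCs (adjusted p = 0.0337, 12 of 19 alternatives), while Adam10 ranged from 832 to 2113 over the 9 libraries and passed no test. Of the 5 proteases 4 were tested. In CCl4-fib against HSCs 1 was called higher and 1 lower, beside 16.2% and 11.7% of all genes tested. 1 was called higher in NASH-fib against HSCs (8.23% of all genes) and 1 in NASH-fib against CCl4-fib (4.97%). With so few genes these counts are not read as a result about proteases.

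Cxcl1, Cxcl2 and Cxcl5 are known targets of NF-kB, and of 16 listed components and feedback genes of this pathway 15 were tested. In CCl4-fib against HSCs 5 were called higher and 0 lower, beside 16.2% and 11.7% of all genes tested. They were Tnfaip3, which encodes the inhibitor A20, by 2.45 (limma adjusted p = 0.00107), Nfkbiz by 2.62 (adjusted p = 0.00055), Nfkb2 by 1.97, Tnfaip2 by 1.59 and the adhesion molecule Icam1 by 1.49. In NASH-fib against HSCs 1 was called higher, Nfkbiz by 3.14 (adjusted p = 0.000289), and 1 lower, Nfkbie at -1.45, counts near the 8.23% and 4.3% of all genes. NASH-fib against CCl4-fib had 0 higher and 3 lower, beside 4.97% and 5.66% of all genes. The 3 were Tnfaip3 at -1.74, Tnfaip2 at -2.20 and the subunit Rela at -2.12. The median over the 15 genes was 0.73, -0.61 and -1.01 in these comparisons. Of the 10 calls, the 3 of Nfkbiz and of Tnfaip3 against HSCs held in all 19 alternatives. Nfkbiz, which encodes a nuclear coactivator of NF-kB target genes, was read at 85.3, 163 and 93.3 in the HSC libraries, at 491, 711 and 875 in the CCl4-fib libraries and at 1056, 885 and 976 in the NASH-fib libraries. Nfkbiz stood high in both fibroblast groups. A part of NF-kB in the values of Cxcl1, Cxcl2 and Cxcl5 was not tested.

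Cxcl9 and Cxcl10 are known targets of interferon gamma, for which 20 genes were listed and 19 tested. In CCl4-fib against HSCs 7 were called lower and 1 higher, beside 11.7% and 16.2% of all genes tested. The log2 fold change was -3.26 for the GTPase Iigp1 (limma adjusted p = 0.00183), -3.49 for the transcription factor Irf8 (adjusted p = 0.00187), -1.96, -1.65 and -1.38 for the GTPases Gbp4, Irgm2 and Gbp7, and -1.95 and -1.12 for the kinases Jak1 and Jak2, whereas Gbp2 rose by 1.45 (adjusted p = 0.0306). In NASH-fib against HSCs 1 was called higher, Gbp2 by 2.31 (adjusted p = 0.00487), and 1 lower, the immunoproteasome subunit Psmb9 at -1.69 (adjusted p = 0.0339). Between the fibroblast groups only Psmb9 was called, lower in NASH-fib at -2.26 (adjusted p = 0.0168). Counts of 1 of 19 are near the shares of all genes called in these comparisons. The receptor genes Ifngr1 and Ifngr2 were tested and called in no comparison. The median over the 19 genes was -0.78, -0.87 and 0.62 in CCl4-fib against HSCs, NASH-fib against HSCs and NASH-fib against CCl4-fib. Of the 11 calls, 4 held in all 19 alternatives, those of Gbp2 in NASH-fib and of Irf8, Jak1 and Iigp1 in CCl4-fib against HSCs. Irf8 is also a gene of macrophages, whose markers are lower in CCl4-fib as given above.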

How the data were processed

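The RNA of 9 pools of mouse liver cells was amplified with a SMARTer kit and sequenced single-end. Reads were aligned to mm10 with STAR (CASAVA is also named in the submitters' processing notes). The authors counted them with HOMER on exons of RefSeq genes, on either strand, and merged the transcripts of a gene. The limit was set at 3 reads at a position, and whether it was set for each strand is not stated. The deposited values are a signal per gene. Per the file headers HOMER's DESeq2 option was run on 10 libraries, but the values of each library sum to about the same total, so they are read counts scaled to a common total. The 9 columns mapped by the labels were used, and 0 other value columns were left. Whole reads were recovered for 100% of values (tolerance 0.01 in units of the deposited value). No library copied another (chi-square per gene 18.6 to 187).

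Genes were kept by edgeR's filterByExpr (edgeR 4.0.16, minimum count 10) and compared with limma 3.58.1 in R 4.3.3, pseudocount 1, prior spread following the mean. The fit was checked on simulated data. Libraries were grouped by title. Alternatives were TMM and DESeq2 scaling, edgeR's quasi-likelihood test, DESeq2 1.42.0, pseudocounts 0.25 and 5, no filter, 2 groups only, 2 kinds of block, and each library left out. Intervals and floors cover spread between libraries or counting error only. Promoter windows came from RefSeq and overlaps from GENCODE M21. Named genes were all members, called genes of the lists, and the 3 most like each member; others (Cxcr2, Cxcr4, Cxcl3, Adam10, Krt19, Spp1, Wt1, Upk3b, Gpm6a, the interferon receptor genes and overlapping genes) were named after their values were seen. The members, lists and markers were chosen with earlier results of these data known.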

Additional observations from a re-analysis of the deposited data

Results flagged for a closer look

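The changes of 5 members against HSCs differed between the fibroblast models, by the limma test of NASH-fib against CCl4-fib. The log2 difference was -3.67 for Cxcl1, -3.46 for Cxcl2, -6.21 for Cxcl5, -2.25 for Cxcl10 and -1.67 for Cxcl13. For Cxcl1, Cxcl2, Cxcl5 and Cxcl13 the CCl4-fib change against HSCs was called and the NASH-fib change was not, and for Cxcl10 neither was.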

How the results depend on the processing

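The 7 members called in CCl4-fib against HSCs were the same in all 19 alternatives. For NASH-fib against HSCs the count of 3 became 1 (Cxcl12) with the label prefix as a block and 4 with DESeq2, and ran from 2 to 4 when 1 library was left out. For NASH-fib against CCl4-fib the count of 5 was 4 under both other scalings, edgeR, a pseudocount of 0.25, no filter and both blocks, each without Cxcl13, and 6 with DESeq2. Leaving out 1 library gave 1 to 5: Cxcl5 alone without CCl4-fib replicate 2, Cxcl1 and Cxcl5 without CCl4-fib replicate 3, Cxcl2 and Cxcl5 without NASH-fib replicate 3, and 3 members without HSC replicate 1 or NASH-fib replicate 1. Leaving out HSC libraries moves that comparison only through the shared spread and the adjustment. The labels do not say whether same-numbered libraries are paired. For each replicate number the label prefix of the HSC library differs from those of both fibroblast libraries. Same-numbered deviations from the group means correlated between -0.473 and 0.514, which cannot decide it, since unlike-numbered libraries were not compared. With the replicate block 3, 7 and 4 members were called in NASH-fib against HSCs, CCl4-fib against HSCs and NASH-fib against CCl4-fib. The Cxcl10 difference of CCl4-fib from HSCs turned to -0.20 without HSC replicate 2 and -0.18 without CCl4-fib replicate 3, and rose to 0.79 without CCl4-fib replicate 1. No other member's fold change turned its direction.

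Over all genes, calls in NASH-fib against HSCs, CCl4-fib against HSCs and NASH-fib against CCl4-fib were 1711, 3801 and 1451, and 668, 2476 and 593 with the label prefix block. The last was 2679 with DESeq2, 929 with the replicate block, and as low as 247 and 238 when CCl4-fib replicate 2 or NASH-fib replicate 3 was left out. CCl4-fib against HSCs gave 2496 and 2419 without CCl4-fib replicate 1 and 2. TMM scaling moved the median of all genes by 0.06, -0.12 and 0.18, smaller than any called change of a member. Of 33 calls of genes in the pathway lists, 14 held in all 19 alternatives. Without division by length, 16 of 27 places in the order of members were the same. Depth limits Cxcl2 in HSCs, at 2 to 7 reads.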
